A study of Homo sapiens with 10 samples.

Results

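The RNA of 8 intestinal lineage transcription factor genes was followed in HCT116 cells and their DNMT1 KO derivative: CDX1, CDX2, HNF4A, HNF4G, GATA4, GATA5, GATA6 and KLF5. The genes are listed by name for their known roles in gut identity, a list drawn up with earlier results of these data known, and all 8 were found among the 58884 genes of each count table. KLF5 and HNF4A had less RNA in DNMT1 KO than in HCT116 libraries, by 2.88-fold and 2.01-fold, HNF4G had 2.32-fold more, and CDX2 and GATA6 passed no test of a difference. CDX1, GATA4 and GATA5 had at most 20 counts in any library.

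HCT116 is a human colorectal carcinoma line, and the DNMT1 KO line was derived from it by targeting DNMT1, whose enzyme maintains DNA methylation through cell division. The derivative is strictly a hypomorph that keeps a truncated DNMT1, and it is a single line. RNA was measured in 6 HCT116 libraries (replicates 1, 2, 3, 7, 8 and 9) and 4 DNMT1 KO libraries (replicates 1 to 4), with no treatment named for either group. The labels place replicate 1 of each line in batch 1, replicates 2 and 3 of each line in batch 2, DNMT1 KO replicate 4 alone in batch 3, and HCT116 replicates 7, 8 and 9 in batch 4. Batches 3 and 4 hold a single line each, so batch and genotype can be separated only in batches 1 and 2.

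The gut epithelium takes its identity in the embryo from a small set of transcription factors that stay on in the adult. CDX1 and CDX2 are homeodomain factors of the hindgut that hold intestinal against gastric fate, and HNF4A and HNF4G are nuclear receptors that bind the same DNA sequence and share work in enterocyte genes. GATA4, GATA5 and GATA6 are zinc finger factors with overlapping roles along the gut, GATA4 in the proximal intestine and GATA6 also in the colon, and KLF5 is a zinc finger factor of proliferating crypt cells. A colorectal cancer line may carry only some of them.

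DNMT1 copies methylation onto CG sites, so the sequences before the start sites of 3 of these genes are shown with each CG in capitals: KLF5 and HNF4A, which were lower in DNMT1 KO, and CDX2, which was not called. KLF5 and HNF4A each have 2 start sites in the RefSeq promoter table used here. The runs are the 250 bases before each start on GRCh38.p14, read 5′ to 3′ on the strand of the gene: KLF5 at chr13:73054726-73054975 (+) for its upstream start and chr13:73058755-73059004 (+) for its internal start, HNF4A at chr20:44355449-44355698 (+) and chr20:44400989-44401238 (+) for the same pair, and CDX2 at chr13:27969316-27969565 (-).
KLF5 upstream start: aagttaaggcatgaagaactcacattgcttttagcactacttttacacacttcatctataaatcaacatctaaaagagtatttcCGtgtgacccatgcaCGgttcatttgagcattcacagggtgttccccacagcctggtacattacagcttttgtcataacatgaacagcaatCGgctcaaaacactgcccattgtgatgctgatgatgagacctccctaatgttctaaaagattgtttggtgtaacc
KLF5 internal start: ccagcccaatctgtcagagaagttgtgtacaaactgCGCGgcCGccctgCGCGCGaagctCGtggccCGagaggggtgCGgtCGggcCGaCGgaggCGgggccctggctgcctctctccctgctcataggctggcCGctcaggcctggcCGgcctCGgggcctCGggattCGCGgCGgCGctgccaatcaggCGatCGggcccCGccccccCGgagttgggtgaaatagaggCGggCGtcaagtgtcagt
HNF4A upstream start: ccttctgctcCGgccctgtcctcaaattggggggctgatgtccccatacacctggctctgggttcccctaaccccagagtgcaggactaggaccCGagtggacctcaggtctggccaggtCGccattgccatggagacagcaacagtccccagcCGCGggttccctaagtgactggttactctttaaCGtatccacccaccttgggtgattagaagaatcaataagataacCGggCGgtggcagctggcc
HNF4A internal start: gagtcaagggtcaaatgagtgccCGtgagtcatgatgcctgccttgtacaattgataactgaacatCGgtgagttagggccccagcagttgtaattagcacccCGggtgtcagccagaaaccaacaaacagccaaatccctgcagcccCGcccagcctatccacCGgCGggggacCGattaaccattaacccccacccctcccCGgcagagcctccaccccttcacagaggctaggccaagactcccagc
CDX2: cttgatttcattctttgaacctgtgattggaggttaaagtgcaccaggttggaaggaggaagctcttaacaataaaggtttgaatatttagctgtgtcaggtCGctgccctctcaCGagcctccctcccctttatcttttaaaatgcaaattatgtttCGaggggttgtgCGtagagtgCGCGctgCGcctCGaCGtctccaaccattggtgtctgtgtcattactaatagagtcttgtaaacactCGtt
Counted over the RefSeq window of 300 bases that adds the 50 bases after each start, the upstream start of KLF5 had 4 CG sites and its internal start had 37. At least 4 CG sites were found in 75.5% of 35116 such windows in the table, and at least 37 in 11.3%, against a median of 14. HNF4A had 11 CG sites at its upstream start and 9 at its internal start, values that 54.7% and 58.4% of windows reached. CDX2 had 16 (reached by 47.5%) and GATA6 had 25 (reached by 32.0%). No RefSeq window was matched to CDX1, GATA4, GATA5 or HNF4G, so HNF4G, which was higher in DNMT1 KO, has no CG count here. CG is its own reverse complement, so both strands give these counts. The counts of reads were summed per gene, so they cannot tell the start sites of KLF5 or HNF4A apart, and methylation at these sites was not analysed here.

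The HCT116 libraries held 35418732 to 85991812 counts each, and the DNMT1 KO libraries 26700853 to 55732013. DNMT1 itself was lower in the libraries labelled DNMT1 KO, at 19.5 ± 3.68 CPM (counts relative to the TMM-scaled library total; SD, n = 4) against 153 ± 64.2 CPM (n = 6) in HCT116, with no overlap between the groups. DNMT1 KO replicate 4 stood apart from the rest: 39.9% of its genes between 1 and 10 counts had an even count, against 64.4 to 70.0% in the other 9 libraries. Counting both mates of a pair would give mostly even counts, so totals and counts of replicate 4 may be in another unit. That was not tested. In the alternative fit with halved counts, the counts of those 9 libraries were halved. A gene is called here where edgeR's adjusted p was under 0.05 and the log2 fold change beyond 1 in either direction, which held for 13.9% of 19279 genes tested. Markers of several cell types moved with the genotype. The summed level of 8 colonic epithelial markers was 2685 to 6430 CPM in HCT116 and 700 to 1483 CPM in DNMT1 KO, with 5 of the 8 called lower and 1 higher (VIL1), and the colonic markers CDH17 and VIL1 were under 1 CPM in both. Summed fibroblast markers ran from 6.47 to 19.8 CPM in HCT116 and 16.6 to 21.4 CPM in DNMT1 KO (3 of 6 called higher). Leukocyte markers ran from 0.0279 to 0.588 and 1.75 to 2.52 CPM (1 of 5 called higher). Endothelial markers ran from 0.290 to 1.58 and 4.46 to 6.01 CPM (2 of 4 called higher). Mean levels were under 1 CPM in both lines for COL1A2, DCN, PTPRC, CD3E, CD68, LYZ, CDH5 and KDR. Their part in the results was not tested. In bulk RNA, fewer cells of a kind and less RNA per cell cannot be told apart.

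Levels of different genes were first set side by side as CPM per kb of exon. In HCT116, KLF5 led with 40.6 ± 25.4 CPM per kb (SD, n = 6), followed by CDX2 with 7.45 ± 2.20 CPM per kb, and neither overlapped its neighbour in the order. GATA6 (1.73 ± 0.48 CPM per kb), HNF4A (1.48 ± 0.40) and HNF4G (1.14 ± 0.45) came next, and neighbours among these 3 overlapped. GATA5, CDX1 and GATA4 were at or under 0.0055 CPM per kb and overlapped one another.

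In DNMT1 KO, KLF5 and CDX2 still led, now closer together, with 14.1 ± 3.96 and 8.74 ± 0.66 CPM per kb (SD, n = 4). HNF4G followed with 2.64 ± 0.51 CPM per kb and overlapped GATA6, at 1.65 ± 0.67 CPM per kb. HNF4A came after GATA6 with 0.735 ± 0.228 CPM per kb, below the GATA6 level of every library. The 3 lowest genes stayed under 0.05 CPM per kb on average, with GATA4 ahead of GATA5 and CDX1, all overlapping.

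**Figure D1:**
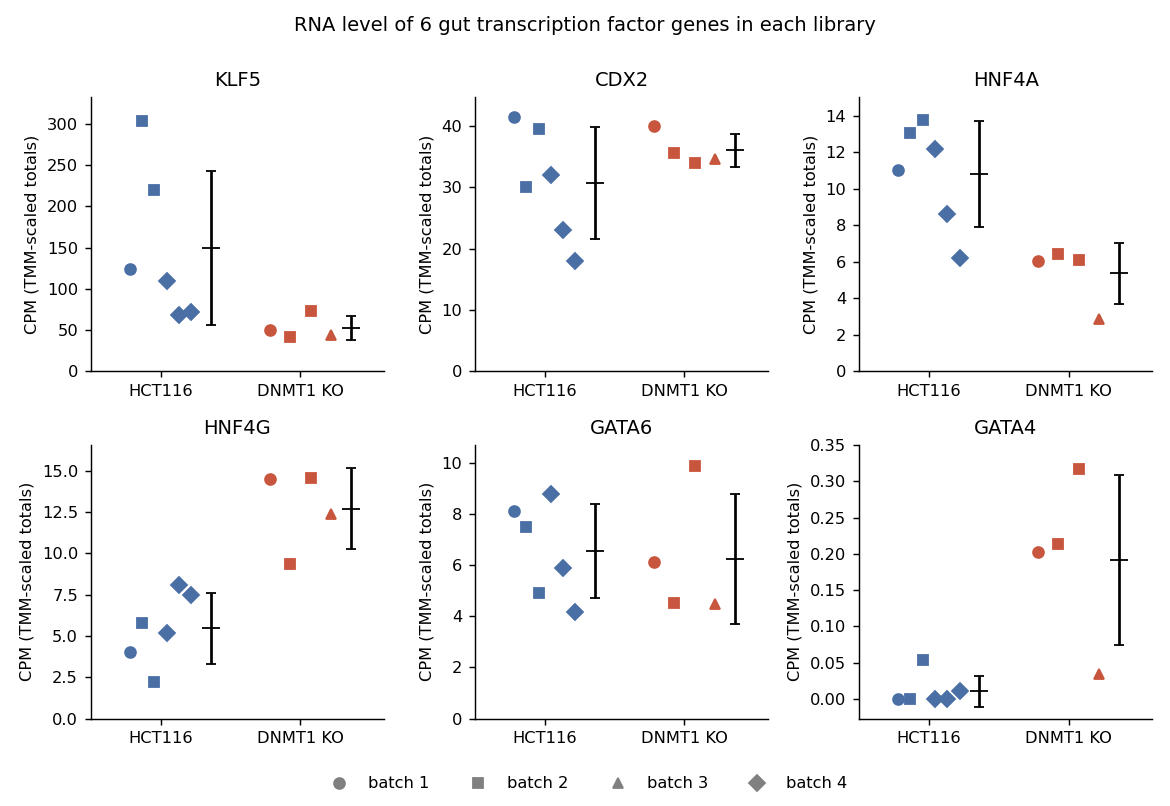
Each panel plots the CPM of 1 gene (y axis, linear, its own range) in the 6 HCT116 and 4 DNMT1 KO libraries (x axis); a point is a library, its shape gives the batch, and the bar beside each group is the mean ± SD. HNF4G is the one gene of these 6 whose groups do not overlap, at 2.22 to 8.07 CPM in HCT116 against 9.33 to 14.6 CPM in DNMT1 KO.

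KLF5 (ENSG00000102554), at chr13:73054976-73077541 on the plus strand, was the most abundant member and the one that fell furthest. Its level in HCT116 was 124, 303, 220, 109, 67.8 and 71.2 CPM in replicates 1, 2, 3, 7, 8 and 9. In DNMT1 KO it was 49.4, 41.0, 73.1 and 44.1 CPM in replicates 1 to 4. All DNMT1 KO libraries lay below HCT116 replicates 1, 2, 3 and 7, while HCT116 replicates 8 and 9, of batch 4, were lower than DNMT1 KO replicate 3. The log2 fold change was -1.52 (SE 0.42) and passed edgeR's quasi-likelihood test at an adjusted p of 0.0202, and an exact two-sided permutation test on log2 CPM, with 210 arrangements of the group labels, gave p = 0.0286. Within batch 1 the log2 ratio was -1.33, within batch 2 it was -2.24, and the fit of batches 1 and 2 with batch as a term gave -1.91 (SE 0.33, edgeR adjusted p = 0.00473).

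KLF5 also differed between batches of the same line. HCT116 libraries of batch 4 held less KLF5 RNA than those of batches 1 and 2, by a log2 fold change of -1.40 (SE 0.37, edgeR adjusted p = 0.0338), and it was the one member called there, where 3.09% of 18656 genes were called higher, 4.94% lower and 8.03% in either direction. The difference between batches of HCT116 was thus close in size to the difference between genotypes over all libraries. KLF5 was no longer called without DNMT1 KO replicate 1 (-1.51, edgeR adjusted p = 0.0668), replicate 2 (-1.43, 0.0718) or replicate 4 (-1.46, 0.0649).

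HNF4A (ENSG00000101076) spans chr20:44355699-44432845 on the plus strand and is best known as a regulator of liver and intestinal differentiation. Its level in HCT116 was 11.04, 13.1, 13.8, 12.2, 8.63 and 6.204 CPM in replicates 1, 2, 3, 7, 8 and 9. In DNMT1 KO replicates 1 to 4 it was 6.04, 6.45, 6.11 and 2.89 CPM. The groups overlapped through a single HCT116 library, replicate 9, which lay below DNMT1 KO replicate 2. The fitted log2 fold change of HNF4A was -1.01, with an SE of 0.31 and an edgeR adjusted p of 0.0413 (exact permutation p = 0.0190), just past the fold limit of 1 on the log2 scale. In batch 1 the log2 ratio was -0.87 and in batch 2 it was -1.10, and both batches together with batch as a term gave -1.02 (SE 0.27, edgeR adjusted p = 0.0338).

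The call of HNF4A was lost in 15 of 21 alternatives, against 2 for HNF4G and 3 for KLF5. Among these were the fits that left out HCT116 replicate 1 (-0.98), 2 (-0.92), 3 (-0.89) or 7 (-0.97), or DNMT1 KO replicate 1 (-1.06), 2 (-1.11), 3 (-1.05) or 4 (-0.80), with edgeR adjusted p-values of 0.0664 to 0.128 in these 8 fits. With library totals alone and no scaling factors, which shifted the median of all genes from -0.07 to 0.14 on the log2 scale, the log2 fold change of HNF4A was -0.79 and not called. Its direction was lower in DNMT1 KO in each of the 21 alternatives run. Among HCT116 libraries, batch 4 differed from batches 1 and 2 by a log2 fold change of -0.51 (SE 0.34) in HNF4A, which did not pass the test (edgeR adjusted p = 0.373). HNF4A-AS1, a gene on the opposite strand within HNF4A that is named after its count was seen, had 8 counts over the 10 libraries.

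HNF4G (ENSG00000164749) lies at chr8:75407914-75566834 on the plus strand and is the intestine-enriched relative of HNF4A. It moved the other way. HCT116 replicates 1, 2, 3, 7, 8 and 9 held 4.05, 5.80, 2.22, 5.15, 8.07 and 7.45 CPM. DNMT1 KO replicates 1 to 4 held 14.5, 9.33, 14.6 and 12.4 CPM. Every DNMT1 KO library was above every HCT116 library, a separation that 15.2% of the 19279 tested genes showed in one direction or the other. The fit gave HNF4G a log2 fold change of 1.21 (SE 0.33, edgeR adjusted p = 0.0193), and the exact permutation p was 0.00952, the smallest that 210 arrangements can give. Batch 1 alone gave a log2 ratio of 1.84 and batch 2 alone 1.70, and the fit of both with batch as a term gave 1.66 (SE 0.41, edgeR adjusted p = 0.0249). HCT116 batch 4 had a log2 difference of 0.77 (SE 0.41, edgeR adjusted p = 0.251) from batches 1 and 2. The call was lost without DNMT1 KO replicate 1 (1.16, edgeR adjusted p = 0.0576), while the direction held in each of the 21 alternatives.

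The HNF4 pair was then compared within each library as the ratio of HNF4G to HNF4A per kb, a description with no test, since it was chosen after the values of both genes had been seen. In HCT116 the ratio was 0.558, 0.674, 0.245, 0.643, 1.42 and 1.83 in replicates 1, 2, 3, 7, 8 and 9. In DNMT1 KO it was 3.65, 2.20, 3.62 and 6.53 in replicates 1 to 4. HNF4A was thus the more abundant of the pair in 4 of 6 HCT116 libraries, those of batches 1 and 2 and replicate 7, and HNF4G was the more abundant in all 4 DNMT1 KO libraries. The log2 ratio was -0.45 ± 1.03 (SD, n = 6) in HCT116 and 1.89 ± 0.64 (n = 4) in DNMT1 KO, a difference of 2.34. The difference was 2.71 in batch 1 and 2.80 in batch 2. Any scaling of a whole library cancels in this ratio.

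**Figure D2:**
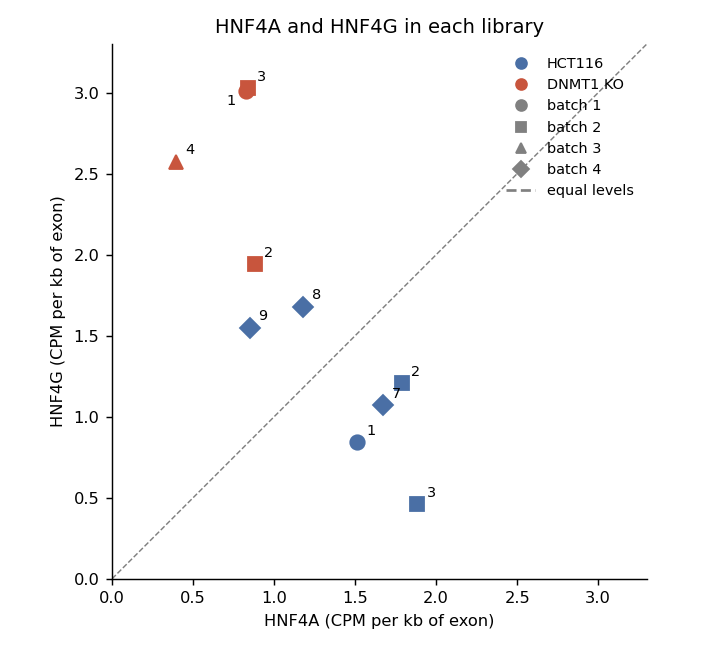
Each point is a library, numbered by replicate, with HNF4A on the x axis and HNF4G on the y axis, both in CPM per kb of exon; colour gives the line, shape the batch, and the dashed line marks equal levels. The 4 DNMT1 KO libraries lie above the line, with ratios of 2.20 to 6.53, and the HCT116 libraries fall on both sides of it, with ratios of 0.245 to 1.83.

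Of the CDX pair, only CDX2 gave appreciable RNA. CDX2 (ENSG00000165556), at chr13:27960918-27969315 on the minus strand, is the factor most used as a marker of intestinal origin. HCT116 replicates 1, 2, 3, 7, 8 and 9 had 41.4, 30.1, 39.5, 32.1, 23.1 and 18.0 CPM of it. DNMT1 KO replicates 1 to 4 had 40.0, 35.5, 33.9 and 34.7 CPM. The DNMT1 KO values all lay inside the HCT116 range, and both HCT116 values below 30 CPM, those of replicates 8 and 9, came from batch 4. CDX2 had a log2 fold change of 0.23 with an SE of 0.25 (edgeR adjusted p = 0.601 and exact permutation p = 0.305). Within batches 1 and 2 the log2 ratios were -0.05 and 0.01, and the fit with batch as a term gave -0.02 (SE 0.23, edgeR adjusted p = 0.976), so its sign changed with the batch term.

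CDX1 (ENSG00000113722), at chr5:150166778-150184558 on the plus strand, is the other hindgut homeobox gene. It had 2 counts over all HCT116 libraries, both in replicate 3, and 0, 4, 2 and 1 counts in DNMT1 KO replicates 1 to 4. The ratio of pooled CPM, DNMT1 KO over HCT116, was 6.28 (95% exact interval 1.20 to 61.9). Intervals from counts cover counting error only and are too narrow where both mates of a pair were counted. CDX1 did not pass the filter on low counts, and without that filter its log2 fold change of 1.95 was not called (edgeR adjusted p = 0.396).

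Among the GATA factors, GATA6 was the one with steady expression in both lines. GATA6 (ENSG00000141448) lies at chr18:22169589-22202528 on the plus strand. Its HCT116 levels were 8.11, 7.49, 4.92, 8.77, 5.87 and 4.18 CPM in replicates 1, 2, 3, 7, 8 and 9. Its DNMT1 KO levels were 6.11, 4.53, 9.89 and 4.48 CPM in replicates 1 to 4. The groups overlapped over most of their range, and the highest value of all came from DNMT1 KO replicate 3. GATA6 had a log2 fold change of -0.07 with an SE of 0.32 (edgeR adjusted p = 0.919 and exact permutation p = 0.762), with log2 ratios of -0.41 in batch 1 and 0.14 in batch 2. Its sign was not settled at this spread: it turned positive in 9 of the 21 alternatives, including library totals alone (0.16) and the removal of HCT116 replicate 1 (0.031), 2 (0.0036) or 7 (0.036) or of DNMT1 KO replicate 2 (0.061) or 4 (0.059). A pair of lncRNA genes overlap GATA6 on the opposite strand with 10 or more counts in sum, GATA6-AS1 with 68 and ENSG00000266283 with 25, against 2147 counts of GATA6 in HCT116 and 1249 in DNMT1 KO.

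GATA4 (ENSG00000136574), at chr8:11676959-11760002 on the plus strand, had 3 counts over the HCT116 libraries, 2 of them in replicate 3 and 1 in replicate 9. DNMT1 KO replicates 1 to 4 had 8, 12, 20 and 1 counts of it. Replicates 1 to 3 of DNMT1 KO thus stood above every HCT116 library at 0.202 to 0.317 CPM, while replicate 4 was inside the HCT116 range at 0.0348 CPM. The ratio of pooled CPM was 24.5 (95% exact interval 7.82 to 124). GATA4 failed the filter on low counts in the fit of all libraries. In fits that kept it, the log2 fold change was 4.05 with no filter (SE 1.02, edgeR adjusted p = 0.0059, called higher), 4.42 without DNMT1 KO replicate 4 (SE 0.89, 0.0038, called higher) and 3.29 in batch 2 alone (SE 1.16, 0.149, not called). The fit without replicate 4 dropped the DNMT1 KO library with 1 count, the one inside the HCT116 range. GATA4 could pass the filter there only on its DNMT1 KO counts, since HCT116 held 3 in all. That selection favours a higher call, so this fit cannot serve as a check of the difference. The call with no filter rests on the same 3 HCT116 counts. Even the highest library of GATA4 held less than 1 CPM.

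GATA5 (ENSG00000130700), at chr20:62463497-62475995 on the minus strand, had 6 counts in HCT116, 4 in replicate 7 and 2 in replicate 8, and 10 counts in DNMT1 KO, as 3, 0, 2 and 5 in replicates 1 to 4. The ratio of pooled CPM was 2.99 with a 95% exact interval of 0.984 to 10.0, which includes 1. A difference in GATA5 was not detectable at this depth.

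In the fit of all 10 libraries, 5 of the 8 genes passed the filter on low counts, and of these 1 was called higher and 2 were called lower. Over all 19279 genes tested, 7.42% were called higher and 6.49% lower in DNMT1 KO, 13.9% in either direction. The 3 genes that failed the filter (CDX1, GATA4 and GATA5) were at or near 0 in both lines. With batch as a term in batches 1 and 2, the same 3 genes were called in the same directions, beside 7.37% of 18681 genes called higher, 6.98% lower and 14.3% in either direction.

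**Figure D3:**
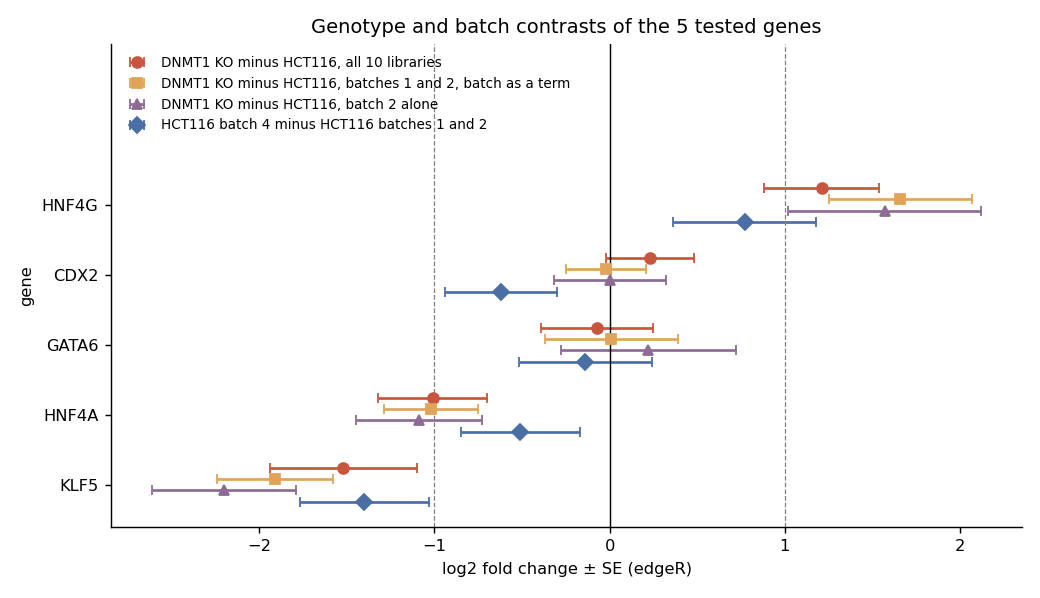
The log2 fold change ± SE (edgeR) of the 5 tested genes is plotted on the x axis for 4 contrasts, 3 of DNMT1 KO minus HCT116 and 1 between batches of HCT116, with dashed lines at the fold limit of 1 in either direction. HNF4G lies to the right of 1 and KLF5 to the left of -1 in the 3 genotype contrasts, and KLF5 lies at -1.40 in the contrast between HCT116 batches too. HNF4A lies close to the line at -1 in the 3 genotype contrasts, at -1.01, -1.02 and -1.09.

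Genes around these factors were read from lists of known relatives, partners and targets, with the fit over all genes. Among 25 other transcription factors of gut and endoderm, 15 passed the filter, 4 were called higher and 5 lower, with a median log2 fold change of -0.02 beside -0.07 over all genes tested. Of all 19279 genes tested, 7.42% were called higher and 6.49% lower, 13.9% in either direction. NR5A2, a nuclear receptor of endoderm and crypt cells, rose from 6.51 ± 3.45 CPM in HCT116 to 258 ± 68.3 CPM in DNMT1 KO (log2 fold change 5.30, edgeR adjusted p = 4.9e-07). With batch as a term in batches 1 and 2 its log2 fold change was 6.24, and HCT116 batch 4 held more NR5A2 than batches 1 and 2 by 1.5 on the log2 scale (edgeR adjusted p = 0.0189). PROX1, a homeobox factor, had no count in HCT116 and 283 counts in DNMT1 KO (1.59 ± 0.40 CPM), at least 178-fold higher when set against a floor of 3 counts over the HCT116 group.

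HES1, the Notch target that favours absorptive fate, rose from 25.3 ± 11.4 to 89.6 ± 19.5 CPM (1.83, edgeR adjusted p = 0.00064). The pioneer factor FOXA1 rose from 2.94 ± 0.83 to 7.43 ± 1.30 CPM (1.34, edgeR adjusted p = 0.0043), while its relative FOXA2 went from 115 counts in HCT116 to none in DNMT1 KO, at least 24-fold lower against the same floor of 3 counts over the group.

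The epithelial ETS factors showed the largest fitted falls of the list. EHF fell from 70.3 ± 18.6 to 0.143 ± 0.028 CPM (-8.91, edgeR adjusted p = 2.6e-09) and ELF3 from 92.4 ± 56.2 to 0.222 ± 0.042 CPM (-8.70, edgeR adjusted p = 3.6e-07). ELF3 was also lower in HCT116 batch 4 than in batches 1 and 2 (-1.78, edgeR adjusted p = 0.00628), and its genotype difference was -9.30 in batches 1 and 2 with a batch term. SOX9, a crypt base factor, fell from 292 ± 130 to 37.5 ± 15.3 CPM (-2.96, edgeR adjusted p = 0.00012). VDR, the vitamin D receptor, was the last of the 5 genes called lower (-1.03, edgeR adjusted p = 0.0313) and is named after its value was seen. Its call was lost in 11 of 21 alternatives, among them batch as a term in batches 1 and 2 (-0.73, edgeR adjusted p = 0.167) and the removal of HCT116 replicate 1 (-0.95) or 7 (-0.83) or of DNMT1 KO replicate 1 (-0.96), 2 (-1.01) or 4 (-0.87).

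Of 20 CDX, GATA and KLF paralogs, the close relatives of the 8 genes, 15 passed the filter, with a median log2 fold change of -0.23. Beside 13.9% of all genes tested called in either direction, no paralog was called higher and 1 was called lower. That gene was KLF2, at 55.2 ± 25.8 CPM in HCT116 and 22.0 ± 5.87 CPM in DNMT1 KO (-1.33, edgeR adjusted p = 0.0145). The count of paralogs called was 0 without DNMT1 KO replicate 2 or replicate 4, 2 or 3 with HCT116 replicate 1 or 9 left out, respectively, and 4 without DNMT1 KO replicate 3. KLF2 itself was not called without DNMT1 KO replicate 2 (-1.22) or 4 (-1.27). Of 10 cofactors and regulators of these factors, among them EP300, CREBBP, SMARCA4 and the KLF5 ubiquitin ligase genes WWP1 and FBXW7, 8 passed the filter and none was called in the edgeR fit or in any of its 21 alternatives, DESeq2 included, with log2 fold changes of -0.37 to 0.67 and a median of 0.28.

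Known target genes of these factors in the intestine were mostly silent in both lines. Of 31, 26 were under 1 CPM in both groups, and 4 had no count at all (SI, FABP1, APOA4 and KRT20). In this list 12 passed the filter, 3 were called higher and 2 lower, with a median log2 fold change of 0.01. Of all genes tested, 13.9% were called in either direction. VIL1, an actin binder of the brush border, had 4 counts in HCT116, all in replicate 7, and 117 counts in DNMT1 KO (0.609 ± 0.141 CPM, log2 fold change 5.47, edgeR adjusted p = 0.00017). Without HCT116 replicate 7, which leaves no count in that group, the fitted value was 7.94, so the size of the VIL1 change rests on those 4 counts. MTTP, which loads lipid onto apolipoprotein B, rose from 0.204 ± 0.150 to 1.11 ± 0.76 CPM (2.39, edgeR adjusted p = 0.0143), and the aminopeptidase gene ANPEP from 0.112 ± 0.101 to 0.540 ± 0.241 CPM (2.3, edgeR adjusted p = 0.0131). All 3 stayed near or under 1 CPM in DNMT1 KO, and the call was lost without DNMT1 KO replicate 3 for MTTP (1.92) and without DNMT1 KO replicate 1 for ANPEP (2.14). ANPEP was not called either with batch as a term in batches 1 and 2 (2.01, edgeR adjusted p = 0.0769), with the replicate block (2.11, 0.106) or in batch 2 alone (1.53, 0.309), and its value was 2.95 without HCT116 replicate 2. MTTP was at 3.78 with batch as a term in batches 1 and 2.

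The targets that fell were both transporters of the apical membrane. SLC15A1, the peptide transporter, went from 3.60 ± 1.79 to 0.0206 ± 0.025 CPM (-7.25, edgeR adjusted p = 7.7e-06), or -7.87 without DNMT1 KO replicate 1. SLC5A1, the sodium-glucose transporter, went from 2.73 ± 2.91 to 0.212 ± 0.160 CPM (-3.59, edgeR adjusted p = 0.0208). Both also differed between HCT116 batches, with log2 fold changes of batch 4 against batches 1 and 2 of -1.32 for SLC15A1 (edgeR adjusted p = 0.0495) and -3.70 for SLC5A1 (edgeR adjusted p = 0.00191). With batch as a term in batches 1 and 2 SLC5A1 was at -4.21, without HCT116 replicate 3 it was at -2.96, and its call was lost without DNMT1 KO replicate 1 (-3.48), 2 (-3.65) or 4 (-3.29). Without DNMT1 KO replicate 1, 3 targets in all were called.

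Lists of neighbouring fates held little RNA. Of 11 gastric genes, 10 were under 1 CPM in both lines, and the single gene tested, ANXA10, fell from 3.76 ± 1.31 to 0.0044 ± 0.0089 CPM (-8.94, edgeR adjusted p = 7.4e-07). The single DNMT1 KO count of ANXA10 was in replicate 2, without which the fitted value was -10.61. Of 10 liver genes, all were under 1 CPM in both lines, 2 passed the filter and neither was called by edgeR, with a median log2 fold change of -0.25.

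**Figure D4:**
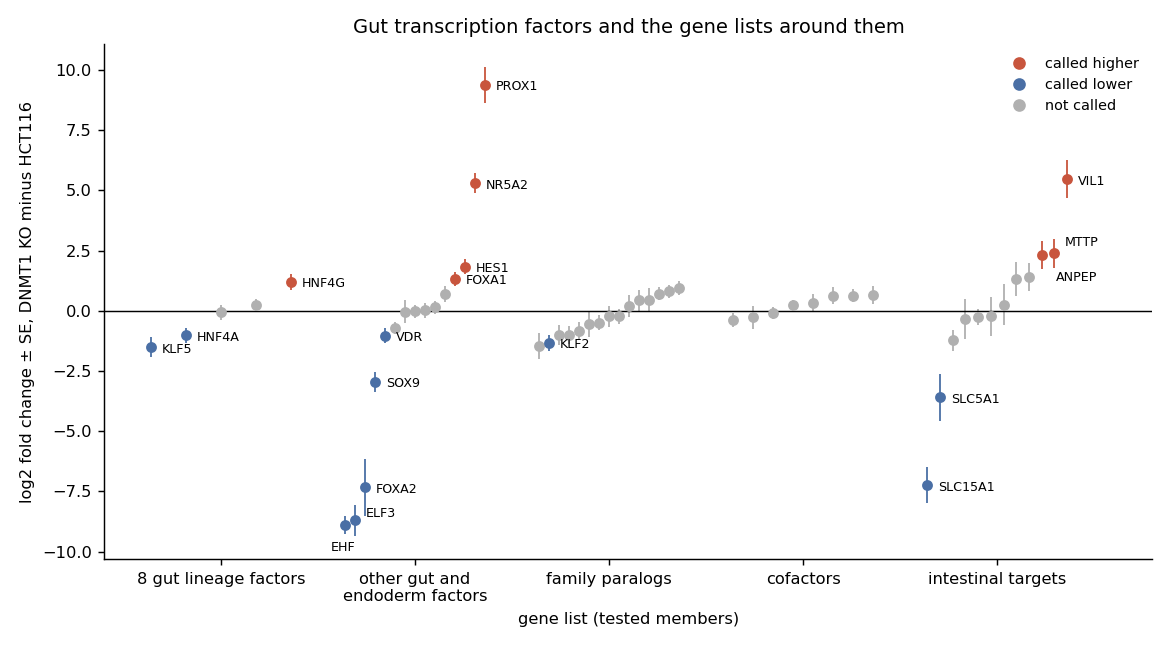
Each point is a tested gene, grouped on the x axis by list, with its log2 fold change ± SE (edgeR, DNMT1 KO minus HCT116) on the y axis and its colour giving the call; points of PROX1 and FOXA2, which have no count in one of the groups, depend on the prior count of the fit. KLF5, HNF4A and HNF4G lie between -1.52 and 1.21, while the other gut and endoderm factors reach from EHF at -8.91 to NR5A2 at 5.30 and beyond it to PROX1.

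Genes whose pattern over the 10 libraries was most like that of a called member were picked by Pearson's r of log2 CPM among 13253 protein-coding genes, as a description. For KLF5 these were SNX9 (r = 0.991), SH3KBP1 (0.99) and ITGA2 (0.979), and with the group means removed the r values were still 0.983, 0.98 and 0.964. For HNF4A they were TXNRD3 (0.972), SYN2 (0.972) and RFFL (0.967), with 0.934, 0.945 and 0.927 after removal of the group means. HNF4G was matched best by CDKL2 (0.974), USHBP1 (0.966) and PRXL2C (0.962), with 0.968, 0.910 and 0.946. The points share libraries, depth and batch.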

How the data were processed

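RNA of 6 HCT116 and 4 DNMT1 KO libraries was measured by stranded, paired-end mRNA sequencing. The authors trimmed reads with Trim Galore 0.4.1 after FastQC 0.11.4, aligned them to hg38 with Bowtie2 without splicing, kept reads of sufficient mapping quality, and made the deposited gene counts from exons with featureCounts. The version of featureCounts is not given in the sources used here. No strand option is named, so reads of a gene and of a partner on the opposite strand cannot be told apart. Unsplit mapping also weighs on levels compared between genes with many and few junctions. The deposited values are raw counts, 1 table per library, and 3 further tables without a listed sample were not used.

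Coordinates and overlapping genes come from GENCODE 44 on hg38, which holds 58472 of the 58884 genes. The quasi-likelihood test of edgeR 4.0.16 in R 4.3.3 was run on the counts of all 10 libraries (two-sided, TMM factors, filterByExpr, no term but group) with the Benjamini-Hochberg adjustment over 19279 genes. Genes were called where the adjusted p was under 0.05 and the log2 fold change beyond 1 in either direction. The SE is the size of the change over the square root of the F statistic. CPM uses TMM-scaled totals and log2 CPM a prior count of 2. Single genes were also tested by exact permutation with 210 arrangements of the group labels, and DESeq2 1.42.0 was an alternative. The scripts were tested on simulated counts.

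The 8 genes and all lists were chosen with earlier results of these data known. Named genes are all 8, of each other list all called genes where 8 or fewer and otherwise the 4 largest increases and 4 largest decreases, the 3 most alike in pattern to each called gene, and overlapping genes with 10 or more counts. HNF4A-AS1, with 8 counts, and VDR fall outside this rule and were named after their values were seen. The study describes the libraries of each line as independent cultures, so p-values measure the spread between cultures of 1 line each.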

Additional observations from a re-analysis of the deposited data

Results flagged for a closer look

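A library far from the others of its group was found in 7 of 44 groups of values examined, where about 2.2 would be found by chance. For CDX1 and VIL1 in HCT116 and ANXA10 in DNMT1 KO all other libraries were at 0, so any count in a single library would be flagged. The excess over 2.2 therefore cannot be read as a number of odd libraries. DNMT1 KO replicate 4, the library of batch 3 and of unlike even counts, had 2.89 CPM of HNF4A, and the other 3 had 6.04 to 6.45 CPM. Without it the log2 fold change of HNF4A was -0.80 and not called.

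CDX1 and GATA4 each stood at 0.0535 CPM in HCT116 replicate 3, which is 2 counts, against 0 and at most 0.0116 CPM in the other 5 libraries. VIL1 was at 0.0557 CPM (4 counts) in HCT116 replicate 7 and at 0 in the others, while DNMT1 KO replicate 2 had 0.818 CPM of it and the others 0.505 to 0.556 CPM. ANPEP was at 0.316 CPM in HCT116 replicate 2 against 0.0557 to 0.107 CPM, and ANXA10 at 0.0178 CPM, 1 count, in DNMT1 KO replicate 2 against 0.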

How the results depend on the processing

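With at least 10 counts in every library, 734 genes were higher and 766 lower, 4 other gut and endoderm factors were called, and 0 intestinal targets and 0 gastric genes, since fewer genes were tested. Batch 2 alone, with 4 libraries, gave 815 higher and 798 lower. Leaving out each library gave 1214 to 1587 higher and 987 to 1250 lower, 8 to 9 other gut and endoderm factors, 0 to 4 paralogs and 3 to 6 intestinal targets. Called paralogs were 3 with library totals alone, no filter, DESeq2, the likelihood ratio test, or batch as a term in batches 1 and 2, and 4 with a batch term over the 10 libraries. A single liver gene (1) was called with no filter and with batch as a term in batches 1 and 2. Except where a setting tested fewer genes or libraries, the cause was not tested.

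HNF4A was not called with RLE factors (-1.0), totals alone (-0.79), at least 10 counts (-0.98), DESeq2 (-0.99), batch 2 alone (-1.09) or halved counts (-0.99), and leaving out a library gave -1.12 to -0.80, with adjusted p-values of 0.0117 to 0.128 over its alternatives. HNF4G was not called in batch 2 alone (1.57, edgeR adjusted p = 0.144) and ran from 1.09 to 1.36 with a library left out, and KLF5 from -1.73 to -1.18. Uncalled CDX2 turned to -0.019 with a batch term over the 10 libraries, -0.018 with one in batches 1 and 2, and -0.0001 in batch 2 alone. Both fits with a batch term take the genotype difference from batches 1 and 2, so they are not separate checks. Uncalled GATA6 turned to 0.16 with totals alone, 0.01 and 0.012 with the same batch terms, and 0.22 in batch 2 alone, and ran from -0.35 to 0.061 with a library left out. The HNF4G to HNF4A difference, an alternative measure chosen after seeing the data, ran from 2.03 to 2.61 with a library left out. The named genes of the other lists, VDR included, kept their call in 299 of 322 fits, lost it in 23 and reversed in 0. KLF5 was -2.20 and called in batch 2 alone.

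The replicate numbers were not taken as pairs, since the correlation between same-numbered libraries, after subtracting each group's mean, was 0.46 for number 1, -0.2 for number 2 and 0.37 for number 3. With the replicate block, 1232 genes were higher and 1235 lower, HNF4A was -1.02 and not called (edgeR adjusted p = 0.0618), CDX2 was -0.0094, and 3 paralogs and 1 liver gene were called.

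Depth limits CDX1, GATA4, GATA5 and most intestinal targets, whose counts are few.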
